A study of Drosophila melanogaster with 2 samples.

Results

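The genes examined here are 10 Drosophila melanogaster genes of the ecdysone response and the nuclear receptor family, namely EcR, usp, br, Eip74EF, Eip75B, Eip78C, Hr3, Hr4, ftz-f1 and Hr39, out of 13945 protein-coding genes on the chromosome arms. They were chosen by name, and each symbol matched a single gene in the annotation. The assay was ChIP-seq, the sequencing of immunoprecipitated chromatin, with an antibody against GFP and a fusion of eGFP to sisA, an X-linked bZIP transcription factor that takes part in sex determination. There was 1 group, whole transgenic embryos collected from 0 to 18 h, with 2 biological replicates. The labels record an insertion for sisA in a strain called sisA-GFP, give no promoter for it and record no sex for the embryos, and control libraries were not used here. The data were lists of peaks on dm6, and the number of reads behind them is unknown. Unless stated otherwise, a summit is the highest point of a peak in the conservative list, which the authors made from both replicates and which held 5133 peaks on the arms. The signal of a peak is the authors' own value, compared only within 1 list.

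Ecdysone is the steroid hormone that times moulting and metamorphosis in insects, and a pulse of it also falls in mid-embryogenesis. It acts through a heterodimer of the nuclear receptors EcR and Usp, which switches on a small set of early genes such as br, Eip74EF and Eip75B. Their products and the receptors encoded by Hr3, Hr4 and Eip78C then set the timing of later genes, among them ftz-f1. Many of these genes are long and have alternative promoters.

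sisA-eGFP summits in these genes lay mostly in introns and far from start sites. The 10 genes held 35 summits over 561 kb of gene, or 0.0624 per kb, against 0.0335 per kb summed over all protein-coding genes and 0.0318 per kb over the 1013 protein-coding genes of at least 20 kb. Hr4 held 9 of them, Hr3 and Eip75B 6 each, ftz-f1 5, Eip78C 3, EcR and Eip74EF 2 each, usp and br 1 each, and Hr39 none. A summit lay in the body of 9 of the 10 genes, against 13.0% of all protein-coding genes and 60.0% of those of at least 20 kb. Of these 10 genes 9 were at least 20 kb long, and 8 of those 9 had a summit. With Hr4 left out, the density of the remaining genes was 0.0525 per kb. No test was made of these differences, since the list of genes is not a sample and neighbouring summits are not independent.

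At transcription start sites (TSSs) the picture was sparser. The 10 genes have 37 distinct annotated TSSs, and 4 of these (10.8%) had a summit within 1000 bp, against 20.7% of the 19607 TSSs of all protein-coding genes. The 4 belonged to 3 genes, EcR, usp and Eip75B, so that 3 of 10 genes were called by this rule, against 21.1% of all protein-coding genes. Of the 9 long genes 2 were called, against 29.1% of all genes of at least 20 kb. Of the 35 summits, 31 (88.6%) lay in introns, 3 (8.57%) within 500 bp of a protein-coding TSS and 1 (2.86%) in a 5' UTR. In the whole list 38.2% lay in introns and 37.1% in promoters. These shares are not like for like, since the 35 summits were taken inside gene bodies only. That choice leaves out intergenic sites, 18.5% of the list, and promoter summits upstream of a gene's first base. Beside long genes alone the shares were close, since 33 of the 35 summits (94.3%) lay between exons, against 1576 of the 1671 (94.3%) in genes of at least 20 kb. No summit in these genes fell in coding sequence, and few of the list did (2.82%), so with 35 summits this is no clear difference. The median distance from a summit to the nearest TSS of its own gene was 7889 bp, and 29 of the 35 were over 2000 bp from any protein-coding TSS. These distances are not given for summits of other long genes, so whether they follow from gene length was not tested.

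**Figure D1:**
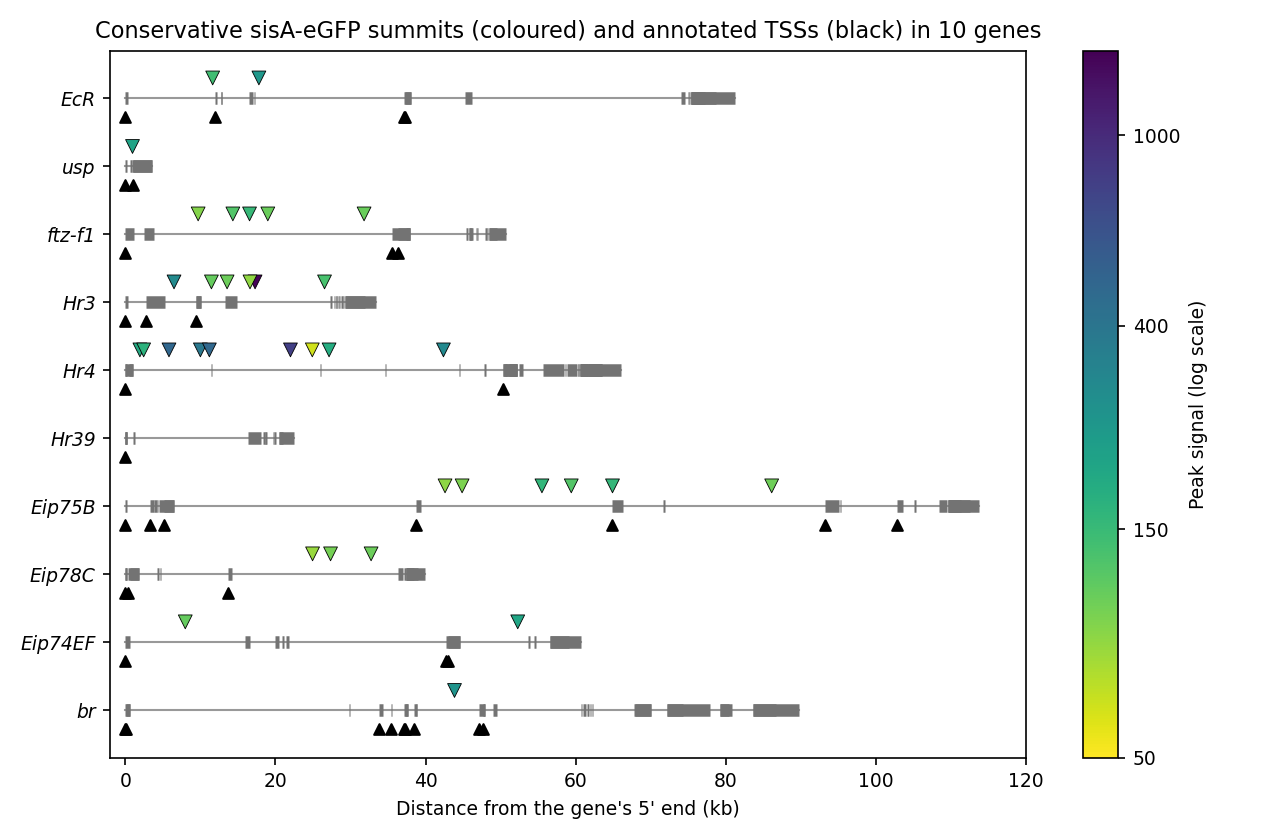
Conservative summits (triangles pointing down, coloured by peak signal on a log scale) and annotated TSSs (black triangles) along the 10 genes, each drawn from its 5' end at 0 kb with exons of all transcripts as grey boxes. The 35 summits fall mainly in the long stretches between exons, 9 of them in Hr4 and none in Hr39.

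**Figure D2:**
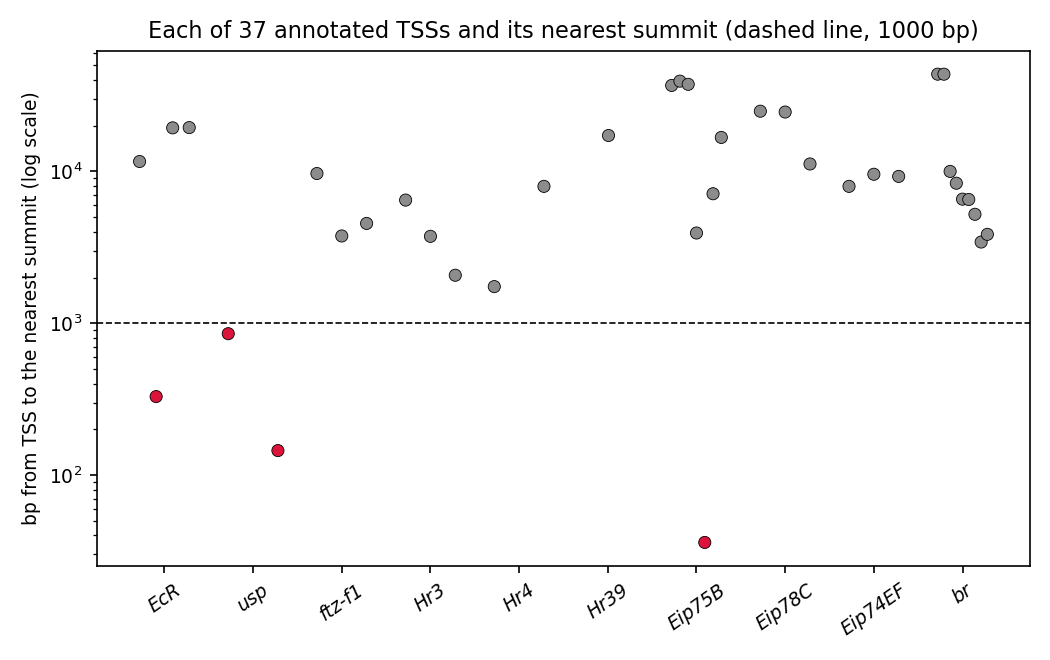
Distance in bp, on a log scale, from each of the 37 annotated TSSs to its nearest summit, by gene, with the TSSs of a gene in order from its 5' end. The 4 red points below the dashed line at 1000 bp belong to EcR, usp and Eip75B.

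The receptor for ecdysone is a pair of proteins, and summits were placed differently in the genes of the 2 partners. The gene usp encodes Ultraspiracle, the fly relative of the vertebrate RXR receptors. It is the short gene of the set, at X from 2038798 to 2042311 on the minus strand (3.51 kb), and its single summit at 2041457 lay 145 bp upstream of the TSS of usp-RA and 854 bp downstream of that of usp-RB. Both of its annotated TSSs were therefore called from the same summit, which also lies inside the neighbouring gene Actn. The peak had a signal of 207, at 125 in the list of replicate 1 and 88.1 in that of replicate 2, and passed the threshold in both. A stretch of 29 bases around it is shown because the summit sits in a gap of 74 bp between exons. It is given on the plus strand of dm6, as are the sequences that follow, and none of the words searched for below falls in it.
usp at chrX:2041443-2041471: atctataaaattacatactcctcttttta

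EcR encodes the ecdysone-binding partner. The gene spans 81.2 kb of 2R, from 6087873 to 6169087 on the minus strand, with 4 TSSs for 6 transcripts. Only the TSS of EcR-RD and EcR-RE at 6157129 had a summit within 1000 bp, at 6157458 and thus 329 bp upstream, with a signal of 141. The summits nearest to the other TSSs were 11629 bp away for EcR-RA, 19375 bp for EcR-RB and EcR-RC, and 19456 bp for EcR-RG. A stronger summit with a signal of 245 lay in an intron at 6151297, 5832 bp downstream of the start of EcR-RD and EcR-RE. That intronic summit was supported by the lists of both replicates (132 in replicate 1 and 113 in replicate 2). The summit at the TSS passed the threshold in replicate 1 alone, with a signal of 96.8, and in the ranked list of replicate 2 it had a signal of 43.9. EcR had 0.0246 summits per kb, more than 51.4% of protein-coding genes of at least 20 kb. By density EcR ranked at 492 of the 1013 such genes, of which 608 had a summit. No ranked peak, even before thresholding, lay within 1000 bp of the starts of EcR-RA, EcR-RB, EcR-RC or EcR-RG.

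The early genes Eip75B, Eip74EF and br, and the related Eip78C, have 22 annotated TSSs between them. A summit lay within 1000 bp of 1 of the 22, that of Eip75B-RC, against 20.7% of the TSSs of all protein-coding genes. Of the 22 TSSs 9 are those of br, which come to 7 once starts within 300 bp are merged. The 12 summits of these genes had signals from 84.9 to 256. They were sparse in br and denser in Eip75B and Eip78C.

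Eip75B encodes E75, a heme-binding nuclear receptor related to vertebrate Rev-erb that can repress the action of Hr3. Its 113.7 kb, on 3L from 17950953 to 18064696 on the minus strand, carry 7 TSSs, each with 1 transcript. The summit at 17999785 lay 36 bp downstream of the TSS of Eip75B-RC, inside its first exon, with a signal of 159 (replicate 1, 75.1, and replicate 2, 81.3). The other 6 TSSs had their nearest summit 3932 to 39353 bp away. The start of Eip75B-RG came closest to a second call, with a peak 10 bp upstream in the ranked list whose signal of 57.5 and score of 535 fell below the threshold score of 830. Of the other 5 summits, 4 lay in a single intron of 25.5 kb between the starts of Eip75B-RG and Eip75B-RC, with signals of 158.9, 125, 98.0 and 88.9. The fifth was at 17978571, in an intron of 21.5 kb, with a signal of 106. Of these 6 summits 4 passed the threshold in replicate 2 and 5 in replicate 1, those at 17978571 and 18019827 in replicate 1 alone and that at 18022100 in replicate 2 alone. The strongest of the 6, at 18009188, was 9367 bp upstream of the start of Eip75B-RC and stood at 100.3 in replicate 1 and 62.7 in replicate 2. Its sequence is shown, on the plus strand, because near each edge it holds a run of overlapping words that are common at summits of the whole list, such as ACAGTG. Capitals mark every searched word, read on either strand, here and in the sequences below.
Eip75B at chr3L:18009088-18009288: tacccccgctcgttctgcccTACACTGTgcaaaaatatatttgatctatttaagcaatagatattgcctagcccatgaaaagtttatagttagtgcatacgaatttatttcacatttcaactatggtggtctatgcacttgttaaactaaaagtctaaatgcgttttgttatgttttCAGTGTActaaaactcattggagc

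Eip74EF encodes E74, an ETS-domain transcription factor made in forms that start at different promoters. The gene spans 60.7 kb on 3L, from 17558672 to 17619325 on the minus strand, and had 2 summits, 44304 bp apart. The one at 17611347 lay 7978 bp downstream of the 5' TSS shared by Eip74EF-RA, Eip74EF-RC and Eip74EF-RE, with a signal of 111. It stood at 58.2 in replicate 1, where it passed the threshold, and at 52.5 in replicate 2, where it did not. The one at 17567043 lay 9277 bp downstream of the start of Eip74EF-RD, with a signal of 201 and support from both replicates (94.2 and 106.6). A TSS of another gene, CycT, was slightly nearer to that summit, at 9255 bp. None of the 3 TSSs of Eip74EF was within 1000 bp of a summit. The stronger site, shown on the plus strand, was the only one of the 35 windows with AGGTCA, the core word of nuclear receptor sites (here read on the other strand), and the only one with CAGGTA, the core of sites bound by the early embryonic activator Zelda.
Eip74EF at chr3L:17566943-17567143: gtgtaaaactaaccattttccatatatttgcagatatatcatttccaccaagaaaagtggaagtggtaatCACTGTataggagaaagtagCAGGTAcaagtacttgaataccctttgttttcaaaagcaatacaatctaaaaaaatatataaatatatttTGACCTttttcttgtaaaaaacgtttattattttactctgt

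Eip78C encodes a nuclear receptor close to E75. Its 39.9 kb on 3L, from 21226609 to 21266503 on the plus strand, held 3 summits, all in its longest intron of 22.2 kb and 11204 to 19003 bp downstream of the start of Eip78C-RB. For all 3 a TSS of another gene, CG43218, was nearer than any of Eip78C, at 6469, 4072 and 1330 bp in genomic order. Their signals of 84.9, 102 and 108 were all below the list's median of 128, and none of the 3 TSSs was called. The summit at 21259350 was supported by both replicates, at 54.4 and 51.1. The other pair passed the threshold in replicate 1 alone, at 49.3 and 61.1, and had 33.3 and 40.5 in the ranked list of replicate 2. The strongest site held TGACG, a word shared by sites of several bZIP proteins, near the end of the window on the plus strand.
Eip78C at chr3L:21259250-21259450: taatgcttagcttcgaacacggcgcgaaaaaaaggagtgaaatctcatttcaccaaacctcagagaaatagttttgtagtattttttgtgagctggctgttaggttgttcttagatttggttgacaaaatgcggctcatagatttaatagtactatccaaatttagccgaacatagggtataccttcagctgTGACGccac

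The gene br encodes the Broad-Complex proteins, BTB zinc finger factors that direct metamorphosis. It had the lowest density among the genes with a summit, 0.0111 per kb over 89.7 kb (X from 1575132 to 1664869, plus strand). That is above 42.1% of protein-coding genes of at least 20 kb, most of them genes without any summit. By density br ranked at 587 of the 1013 such genes, of which 608 had a summit. Its only summit, at 1618879, had a signal of 256 and support from both replicates (144 and 113), and lay 3429 bp upstream of the start of br-RS. The nearest protein-coding TSS was not one of br at all but that of Mur2B, a gene whose span overlaps that of br and also holds the summit, at 724 bp. Each of the 9 TSSs of br, including the start shared by 8 of its 16 transcripts, was 3429 bp or more from the summit. The window, on the plus strand, holds TGACG on one side of the summit and ATATTA on both.
br at chrX:1618779-1618979: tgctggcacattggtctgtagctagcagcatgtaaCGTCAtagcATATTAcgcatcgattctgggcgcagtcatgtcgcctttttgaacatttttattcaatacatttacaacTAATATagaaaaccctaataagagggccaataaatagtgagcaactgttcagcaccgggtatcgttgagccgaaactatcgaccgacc

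The third set holds receptors that act after the first response, or with segmentation genes in the early embryo. Hr4 encodes a nuclear receptor related to vertebrate GCNF and known for its part in timing the steroid pulse and prepupal genes. It held 9 summits in 66.0 kb (X from 1941940 to 2007956, plus strand), or 0.136 per kb, and by count it ranked at 11 among the 13945 protein-coding genes. The genes with the most summits were kirre (24), CG1677 (20), CHES-1-like and Raf (13 each) and sbb (12). All 9 summits of Hr4 lay in its first 4 introns, 5 of them in the first intron of 10.4 kb, which gives 0.481 per kb there. In order along the gene, their signals were 190, 169.7, 485, 383, 483, 799.97, 63.5, 184 and 301. In Hr4, 8 of the 9 were above the list's median, against 11 of the 26 summits of the other genes, and 8 passed the threshold in both replicates. In the same order the ranked list of replicate 1 had 78.8, 86.9, 293, 185, 215, 432, 29.6, 86.9 and 157, and that of replicate 2 had 111, 90.9, 193, 204, 262, 370.5, 33.4, 100.3 and 144. The same summit was the highest and the same one the lowest in each.

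The exception in Hr4 was the summit at 1966847, with a signal of 63.5 and a score of 856, which passed in neither replicate alone (29.6 and 33.4 in their ranked lists) and was absent from the longer list. The strongest, at 1963935, lay in the second intron, 21995 bp from the 5' TSS, and stood at 432 in replicate 1 and 370.5 in replicate 2. It ranked at 125 among the 5133 peaks. Neither TSS of Hr4 was called. The 5' TSS shared by 7 transcripts was nearest to a summit 1744 bp upstream, which lay only 111 bp from the TSS of the next gene, CG3587. The start of Hr4-RE and Hr4-RF was 7978 bp from its nearest summit. The windows of the 3 strongest sites are printed, on the plus strand, since they carry the highest signals of the gene. The first is in the second intron and the others in the first intron, and the last, 153 bp from an exon, was the richest in G and C of the 9 windows, at 54.7%.
Hr4 at chrX:1963835-1964035: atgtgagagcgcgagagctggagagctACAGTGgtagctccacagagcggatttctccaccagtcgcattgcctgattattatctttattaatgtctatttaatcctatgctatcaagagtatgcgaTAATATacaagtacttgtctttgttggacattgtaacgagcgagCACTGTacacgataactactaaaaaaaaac
Hr4 at chrX:1947647-1947847: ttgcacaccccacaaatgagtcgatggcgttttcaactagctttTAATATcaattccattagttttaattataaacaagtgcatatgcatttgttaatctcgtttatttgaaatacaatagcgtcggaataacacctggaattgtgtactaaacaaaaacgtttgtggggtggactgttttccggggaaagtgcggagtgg
Hr4 at chrX:1953028-1953228: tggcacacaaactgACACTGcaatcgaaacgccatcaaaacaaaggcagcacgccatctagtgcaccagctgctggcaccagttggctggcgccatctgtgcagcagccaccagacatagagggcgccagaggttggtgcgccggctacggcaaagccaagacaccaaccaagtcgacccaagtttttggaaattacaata

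The gene ftz-f1 encodes a nuclear receptor that partners the segmentation protein Fushi tarazu in the early embryo and, from another promoter, makes the form that gives prepupae their competence to respond to ecdysone. It spans 50.7 kb on 3L, from 18750607 to 18801309 on the minus strand. Its 5 summits all lay in the longest intron, of 31.8 kb, which separates the 5' TSS of ftz-f1-RB from the downstream starts of ftz-f1-RA, ftz-f1-RC and ftz-f1-RD. In genomic order the signals were 109.4, 109.3, 154, 126 and 93.8, so that only 1 of the 5 was above the list's median. The summit nearest to a TSS was 3759 bp upstream of the start of ftz-f1-RC and ftz-f1-RD, and no TSS was called. The ranked list of replicate 1 had 56.3, 56.4, 74.6, 72.2 and 45.0 for them and that of replicate 2 had 51.6, 55.2, 79.8, 46.9 and 41.2. Both replicates supported 2 of the 5, replicate 1 alone 2 and replicate 2 alone 1. The strongest, at 18784766 and 12771 bp from the nearest exon, stood at 74.6 in replicate 1 and 79.8 in replicate 2. Its window is shown on the plus strand for its lack of all searched words but ATATTA.
ftz-f1 at chr3L:18784666-18784866: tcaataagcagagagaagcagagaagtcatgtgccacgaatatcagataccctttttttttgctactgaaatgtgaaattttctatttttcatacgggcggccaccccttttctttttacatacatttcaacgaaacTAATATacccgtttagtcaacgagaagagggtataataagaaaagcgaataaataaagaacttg

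Hr3 encodes a nuclear receptor related to vertebrate ROR that activates ftz-f1 in prepupae. It was the densest of the long genes, with 6 summits in 33.4 kb (2R from 10203995 to 10237348, minus strand), or 0.180 per kb, above 97.7% of protein-coding genes of at least 20 kb. One of them was the strongest of the whole set. At 10220068, in an intron of 12.4 kb and 7889 bp downstream of the start of Hr3-RA, Hr3-RF and Hr3-RH, it had a signal of 1443 (823 for replicate 1 and 625 for replicate 2) and ranked at 30 among the 5133 peaks. The 5 others had signals of 298, 135, 111, 107 and 87.5. In that order they stood at 183, 64.1, 70.0, 60.5 and 40.04 in replicate 1 and at 112, 62.0, 45.7, 48.3 and 43.8 in replicate 2, so that the strong site was far above its neighbours in each. That of 107, at 10223796, lay in a 5' UTR of Hr3 itself. For that of 135, at 10210813, a TSS of CG34221 at 11102 bp was nearer than any of Hr3, at 17144 bp. Both replicates supported 5 of the 6, and the summit at 10225885 passed in replicate 1 alone (70.0, against 45.7 in the ranked list of replicate 2). None of the 3 TSSs was called, with nearest summits at 2072, 3738 and 6479 bp. Every summit in Hr3 also lies within the annotated span of CG12912 and 5 of them within that of CG46321, which shares a TSS with Hr3, so none can be given to Hr3 alone by position.

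Hr39, which encodes the nearest relative of Ftz-f1, was the single gene without a summit, in 22.4 kb on 2L from 21237250 to 21259675 on the plus strand. Its only TSS was 17371 bp from the nearest summit. A peak just outside the list lay 108 bp downstream of that TSS, with a signal of 65.2 and a score of 830 in the ranked list from both replicates. It was matched within 100 bp by a peak of 30.0 in replicate 2 and by none in the ranked list of replicate 1. On the arms 132 ranked peaks reached that score without being in the conservative list. Over all 37 TSSs, 6 had no ranked peak within 1000 bp and 27 had only peaks outside the conservative list. The strongest peak at each of these 27 had a signal from 19.9 to 65.2. That is under the tenth percentile of the conservative list (68.3), though the lowest signal in that list was 2.04.

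**Figure D3:**
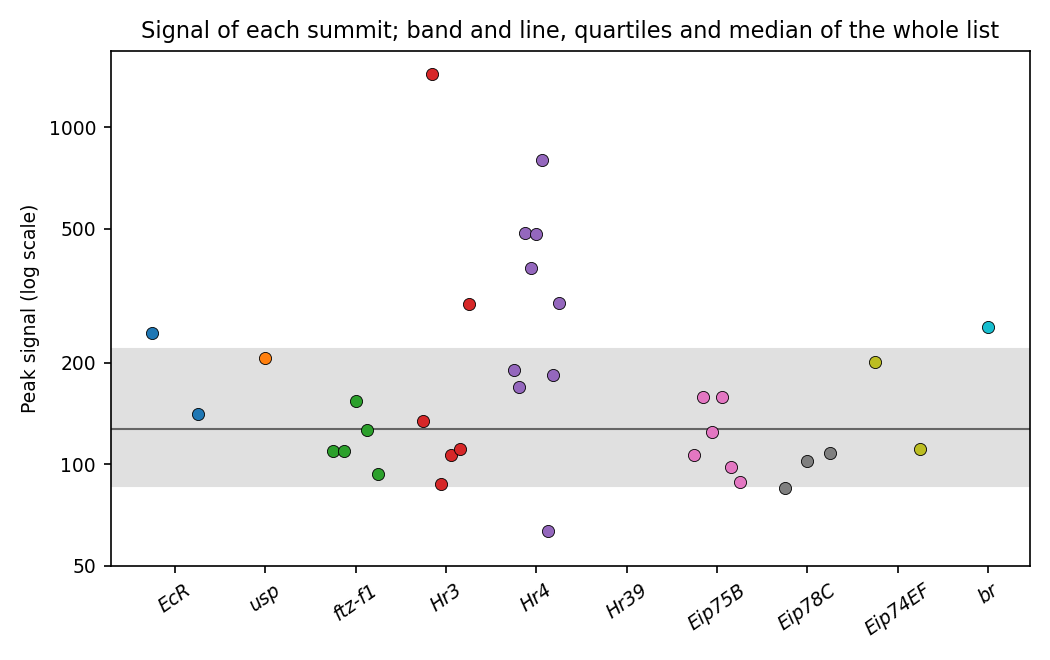
Signal of each of the 35 summits on a log scale, by gene, with points of a gene in genomic order. The grey band runs from 86.3 to 220, the quartiles of all 5133 peaks, and the line marks their median of 128. Hr4 sits mostly above the line, Eip78C below it, and the highest point is the intronic summit of Hr3 at 1443.

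Over the 35 summits, the signals overlapped those of the list. Their median was 141 (quartiles 107 to 226), against 128 (86.3 to 220) for all peaks, and 19 of the 35 were above the list's median. Without Hr4 the median was 118. Among intronic summits alone the medians were 135 in these genes (n = 31) and 123 in the whole list (n = 1961). Of the 35 summits 4 were among the strongest 500 of the 5133 peaks, a share close to that of the whole list. Of these 4, 3 were in Hr4 and 1 in Hr3. Density was spread over a wide range. Among protein-coding genes of at least 20 kb, the share with a lower density was 97.7% for Hr3, 94.6% for Hr4, 88.9% for ftz-f1, 82.4% for Eip78C, 73.2% for Eip75B, 57.8% for Eip74EF, 51.4% for EcR and 42.1% for br. Each share includes the long genes without a summit, since 608 of the 1013 had one. Counted only between exons, the density was 0.0715 per kb in the 10 genes and 0.0351 per kb in all genes of at least 20 kb. The longest such stretch of its gene held 13 of the 33 summits found between exons. The share of the length between exons in these longest stretches is not given, so the count does not show a concentration there.

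**Figure D4:**
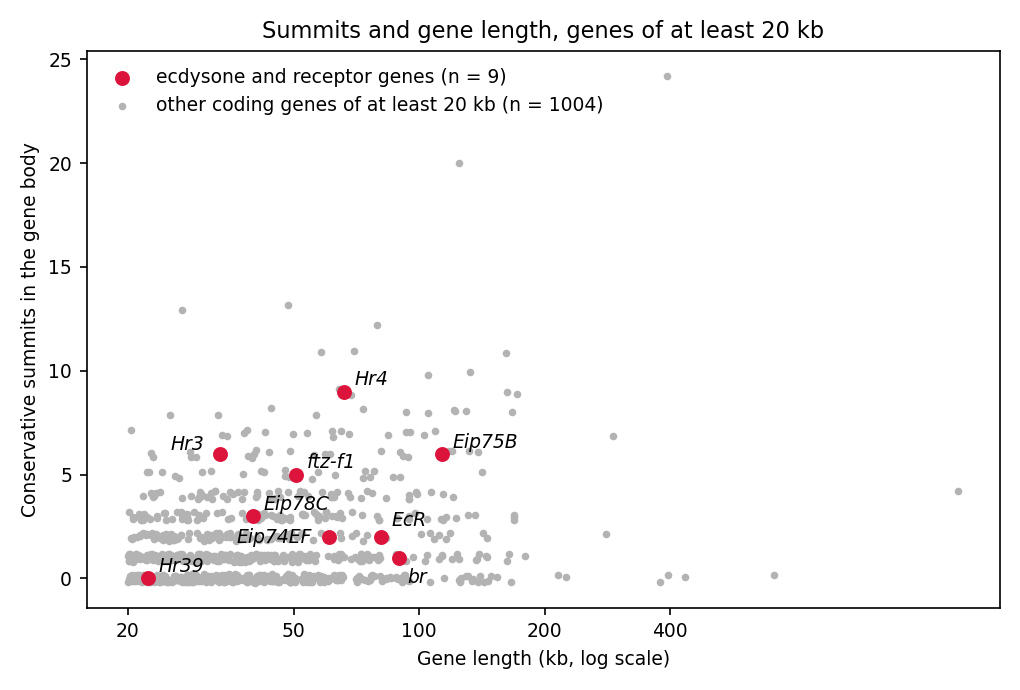
Conservative summits in the gene body against gene length in kb on a log scale, for the 9 ecdysone and receptor genes of at least 20 kb (red) and 1004 other protein-coding genes of that length (grey, shifted slightly up or down to show overlapping points). Hr3 and Hr4 stand among the higher points for their length, while br, of 89.7 kb, holds 1 summit and EcR, of 81.2 kb, holds 2.

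The 3 genes on X, br, Hr4 and usp, held 11 summits in 159 kb, or 0.0691 per kb, and the 7 on other arms 24 in 402 kb, or 0.0597 per kb. Over all protein-coding genes the densities were 0.0431 per kb on X and 0.0313 per kb elsewhere. Of the 11 summits on X, 9 were those of Hr4, whose end lies only 30.8 kb from usp.

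Support by the replicates was read from each replicate's own list. All 35 summits had a match within 100 bp in the ranked lists of both, at a median distance of 12 bp in replicate 1 and 15 bp in replicate 2. The conservative list was made from both replicates, so such matches follow in large part from how the summits were chosen. The share of all 5133 summits with such a match is not given. Past the threshold, 23 of the 35 (65.7%) were found in both replicates, 9 in replicate 1 alone, 2 in replicate 2 alone and 1 in neither. Of all 5133 summits 57.5% were found in both and 19.7% in neither. Replicate 1 supported 32 of the 35 and replicate 2 supported 25, from lists of 4720 and 3408 peaks. Of all 5133 summits replicate 1 supported 75.8% and replicate 2 supported 62.0%. The signals of the 35 in the ranked lists had a Spearman rho of 0.850, as a description across sites that share the same 2 libraries. The 12 summits without support from both had signals of 63.5 to 141 in the conservative list.

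**Figure D5:**
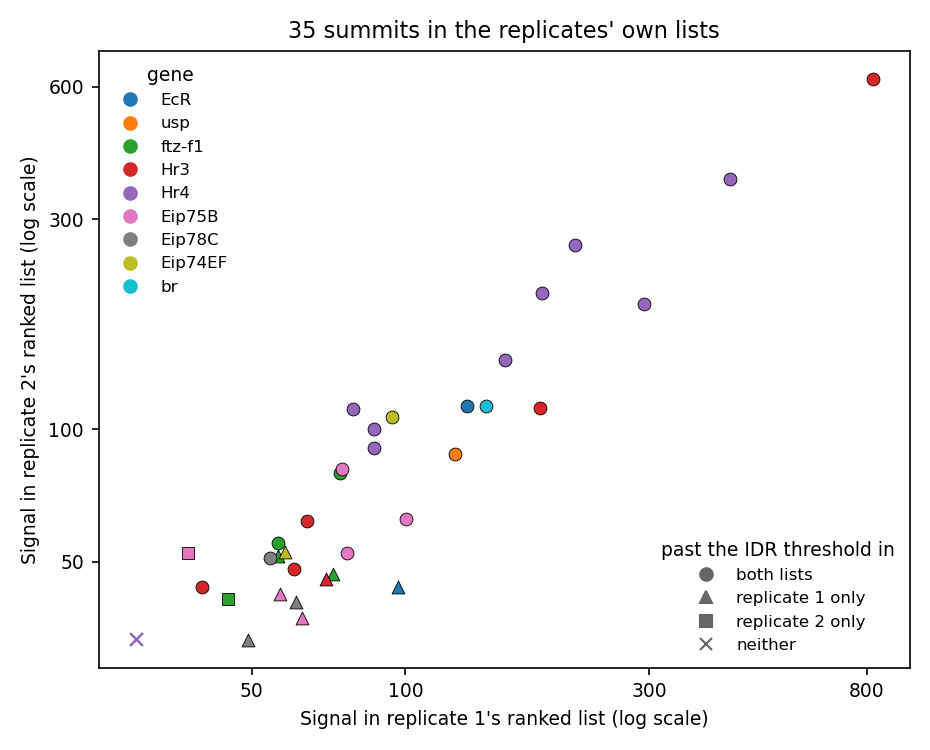
Signal of each of the 35 summits in the ranked list of replicate 1 and of replicate 2, both on log scales, coloured by gene, with the symbol giving the replicates in which it passed the threshold. The scales of the lists need not be the same. The summit of Hr3 at 823 and 625 stands at the top, and the cross at 29.6 and 33.4 is the summit of Hr4 that passed in neither.

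Since sisA is a bZIP protein, bZIP sites were among the 9 words searched on both strands within 100 bp of each summit. The full bZIP sites TGACTCA, TGACGTCA and TTGCGCAA were in none of the 35 windows and in 1.64%, 0.273% and 0.234% of the 5133 windows of the list. The shorter TGACG, which TGACGTCA contains, was in 7 of 35 (20%), against 12.2% of the list, and in 24.3% of windows 500 bp to each side of the same 35 summits. AGGTCA and CAGGTA were in 1 of 35 each, against 4.13% and 3.88% of the list. The Ftz-f1 type site TCAAGGTCA, which contains AGGTCA, was in none, as were TATCGATA and GAGAGAGA, which 0.0974%, 2.36% and 1.11% of the list held. In windows of the same length centred 100 bp upstream of all protein-coding TSSs these 9 words occurred at 1.78% (TGACTCA), 0.390% (TGACGTCA), 0.203% (TTGCGCAA), 16.4% (TGACG), 3.67% (AGGTCA), 0.0987% (TCAAGGTCA), 6.21% (TATCGATA), 4.35% (CAGGTA) and 3.22% (GAGAGAGA).

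A further 4 words were picked after seeing which were common at summits of the whole list. ACAGTG was in 8 of the 35 windows (22.9%), against 21.1% of the list. ACACTG was in 6 (17.1%, against 19.6%) and AGTGTA in 7 (20%, against 17.9%), and the 3 words can overlap each other. At least 1 of these 3 words was in 15 of the 35 windows (42.9%), close to the 42.0% of the list. The flanks 500 bp to each side held 1 of the 3 in 14.3% of windows in these genes and in 18.5% over the list. The A and T word ATATTA was in 11 of 35 (31.4%, against 31.8%). The windows were poorer in G and C than their flanks, at a median of 37.8% against 44.3% in these genes and 35.8% against 43.8% in the list. By gene, at least 1 of the 3 words was at 4 of the 6 summits of Hr3 and of Eip75B, 3 of the 9 of Hr4, both of Eip74EF, 1 of the 2 of EcR, the single one of usp, and none of the 5 of ftz-f1, the 3 of Eip78C or the 1 of br.

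The wider pathway was described from lists of other genes. Of 12 genes for ecdysteroid synthesis, uptake and breakdown, 1 was called by a summit at most 1000 bp from a start, and that was shd, which encodes the enzyme that makes the active hormone (66.3, at 312 bp). That is 8.33% of the list, beside 21.1% of all protein-coding genes. None of the 12 had a summit in its body, beside 13.0%. These genes are short, with a median of 3.59 kb, and with 12 genes neither count is a clear difference. Of 13 other nuclear receptor genes, 6 were called (46.2%, beside 21.1% of all protein-coding genes), and 4 had a summit in the body (30.8%, beside 13.0%). The strongest peaks near their starts had signals of 455 at Hr96, which responds to foreign compounds, 396 at ERR, the estrogen-related receptor that controls energy metabolism, 178 at eg, which acts in neuroblasts, and 169.5 at Hnf4, a regulator of lipid metabolism. Of 16 other ecdysone response genes, 3 were called (18.8%, near the 21.1% of all protein-coding genes), and 5 had a summit in the body (31.2%, beside 13.0%). Peak signals were 314 at Eip63F-1, which encodes a calcium-binding protein, 308 at hid, a cell death gene, and 119 at DopEcR, a membrane receptor for dopamine and ecdysteroids. Of 5 receptor cofactor genes, 2 were called (40%) and 3 had a body summit (60%), beside the same 21.1% and 13.0%. Body summits are commoner in long genes, at 60.0% of those of at least 20 kb, and the median lengths were 13.3 kb for the other ecdysone response genes and 19.4 kb for the cofactors. The called ones were bon, a TIF1 relative, with a signal of 105, and trr, a histone methyltransferase gene, with 90.2. The other receptor genes are shorter than the 10 genes above, with a median of 8.06 kb, against 60.7 kb for the 9 long ones, and their summits per kb came to 0.0237. The cofactor genes had 0.0623 per kb, near the 0.0624 of the 10 genes, the other ecdysone response genes 0.0293, and the genes for ecdysteroid synthesis, uptake and breakdown 0. Much of the 196 kb of that last list is in nvd (76.8 kb) and spok (31.7 kb). Their nearest summits were 893086 and 61806 bp away, so the 0 rests largely on where these genes lie.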

How the data were processed

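Peak lists from ChIP-seq of sisA-eGFP embryos, 2 replicates, were used as deposited by the authors on dm6, per the file listings, which trace the conservative and longer lists to both replicates and give each replicate lists of its own. The signal column is the authors' peak caller value, with no stated normalization, and the score column, also deposited, runs in whole numbers and is at least 830 in thresholded lists, the score of an irreproducible discovery rate (IDR) of 0.01. Aligner and peak caller were not given in the sources used here. Depth is unknown, so that no counting intervals could be given. In the ranked lists 8 columns of values for the pair of inputs compared were not used.

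Positions were made 1-based and placed on Ensembl release 115 (BDGP 6.54). Coordinates were identical to RefSeq's for 99.99% of shared symbols. A total of 69 peaks off the arms were left out. Printed sequences are from the RefSeq genome of that assembly, in capitals where a searched word occurs. Every distinct transcript start was a TSS. A summit up to 500 bp from a protein-coding TSS was counted as promoter, and the others by the first match of 5' UTR, CDS, intron and 3' UTR. Introns are stretches between the exons of all transcripts. Replicate summits were matched within 100 bp. No tests were made and no p-values are given. Counting and word search were tested on simulated data. Members, lists and rules were chosen with earlier results of these data known. Every one of the 10 genes was named, with the 4 strongest called genes of each other list, the 5 genes with most summits, and the strongest site of each gene for sequence, except EcR and Hr3, for which none is printed. A pair of further Hr4 sequences, CG3587, Mur2B and other overlapping genes, and 4 words were added after values were seen. In the other lists phm, EcI, Eip71CD and Eip55E were matched through synonyms. Software was matplotlib 3.10.9, scipy 1.17.1, pandas 2.3.3 and numpy 2.4.6 under Python 3.11.15. Alternatives were other lists, single replicates, distances, TSS definitions and matching rules.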

Additional observations from a re-analysis of the deposited data

How the results depend on the processing

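No paired analysis was possible because there is 1 group. With only peaks above the list's median signal, 19 summits remained in the 10 genes and 16 of them in introns, or 0.0339 per kb, where all genes of at least 20 kb had 0.0144 per kb. Either replicate's list alone gave 0.0463 to 0.0624 summits per kb (26 to 35 summits), beside 0.0200 to 0.0286 for those long genes. With a single TSS per gene, 1 gene was called, usp. The share of all protein-coding genes called under that rule is not given, so this count has nothing to be set beside. Counting the ranked lists before thresholding, all 35 summits had a match in both replicates, as is likely for a list made from both. The other 29 alternative values for these summaries, the longer list with 36 summits among them, stayed within 1.5 times the main count or within the spread between replicates. EcR had 1 summit in the list of replicate 2 alone and 3 in that of replicate 1 alone, and Eip78C had 1 and 3. Among the stronger peaks ftz-f1 kept 1 of 5 and Eip78C none, while Hr4 kept 8. Control libraries were not used here, so signal over background was not measured, and depth is unknown.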

Other observations

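The windows at the strongest summits of Hr4 (1963935) and Eip74EF (17567043) both contain AAGTACTTG, within the run CAAGTACTTG, which reads the same on both strands. The shorter word, AAGTACTTG, was noticed in the printed sequences and is the one counted here. It was in 2 of the 35 windows and in 11 of all 5133 (0.214%), and in 0.205% of the 10266 windows 500 bp to each side, so over the list it was no commoner at summits than beside them.

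Summits in these genes were spaced unevenly. The smallest distances between neighbours were 500 bp in Hr4 and 675 bp in Hr3, and the largest within 1 gene was 44304 bp in Eip74EF. Of the 35 peaks 25 had a width of 340 bp, as did 72.1% of the list, and peaks of that width had a median signal of 102 over the list.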
